A study of Mus musculus with 12 samples.

Results

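The transcripts of 10 genes that direct or mark the trophectoderm were followed in mouse embryos collected midway through the 2-cell stage. The genes are Cdx2, Eomes, Gata3, Tfap2c, Ets2, Tead4, Yap1, Krt8, Krt18 and Dsp. They were taken by symbol from the annotation of the array platform, which lists 22 of the 44937 tested probe sets under them, and they are 10 of the 18163 genes with a probe set of their own. Each gene is described on its brightest probe set, the one with the highest mean over all arrays, and its other probe sets are given as a check.

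The trophectoderm is the first epithelium of the mammalian embryo, and it forms the outer layer of the blastocyst and later the embryonic part of the placenta. It arises several divisions after the 2-cell stage, so at this stage no trophectoderm cells exist and the genes are named for a later role. In outer cells of the morula the Hippo kinases are inactive, and Yap1 enters the nucleus and acts with the DNA-binding protein Tead4 to switch on Cdx2 and Gata3. Cdx2 and Oct4, the product of Pou5f1, oppose each other in the blastocyst, where Oct4 marks the inner cells. Krt8 and Krt18 form the first keratin filaments of the embryo, and desmoplakin, the product of Dsp, ties such filaments to desmosomes.

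All embryos came from superovulated wild type F1 (C57BL6xDBA/2) females of 3 to 5 weeks that were mated with wild type males, and embryos of 3 to 6 females were pooled at the pronuclear stage. The Oct4-MO group was injected in the cytoplasm at the 1-cell stage with a morpholino against the translational start of Oct4, and the Ccna2-MO group with one against Ccna2, which encodes cyclin A2. The labels give 0.6 mM for both, whereas the study's methods give a higher dose for Ccna2-MO. The arrays of each knockdown and its controls are called 1 experiment here, although the study's supplement lists 3 for each knockdown. Each of the 2 experiments in this sense had its own uninjected embryos, taken from the same pool and cultured in parallel. Each of the 4 groups has 3 arrays of 20 pooled embryos. From each pool, RNA equal to that of 10 embryos was amplified in 2 rounds. The study used Ccna2-MO as its injected control on the arrays. In a comparison with uninjected embryos, injection and knockdown cannot be told apart, whereas the difference between the knockdowns sets one injected group, relative to its own controls, against the other. Since RNA of whole pools was measured, fewer embryos with a transcript and less of it in each embryo cannot be told apart either.

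A morpholino blocks translation and need not lower its target mRNA, so the arrays do not check the knockdown. Pou5f1 was higher by 0.18 on the log2(value + 16) scale in Oct4-MO embryos than in their controls (limma, adjusted p = 0.769), and Ccna2 differed by -0.12 in Ccna2-MO embryos (adjusted p = 0.762). On every array 10 of 10 measured oocyte and early embryo markers lay above 16, among them Dppa3, Oosp1 and Tcl1, with Dppa3 between 4808 and 6513. One marker was called in each knockdown, Trim43a at -1.12 in Oct4-MO embryos (adjusted p = 0.0223) and Zar1 at 2.19 in Ccna2-MO embryos (adjusted p = 0.0328). Of 13 measured markers of cumulus and granulosa cells, which the labels say were removed, 2 (Fshr and Inhba) lay under 16 on all 12 arrays, and the summed values of the 13 ranged from 692 to 810 and from 671 to 985 in uninjected and Oct4-MO embryos of the first experiment and from 845 to 1188 and from 712 to 1567 in uninjected and Ccna2-MO embryos of the second. None of the 13 was called. Among them were Amhr2, Cyp11a1 and Star, and Cyp11a1, a steroidogenic enzyme, was higher by 1.24 in Oct4-MO embryos (adjusted p = 0.505) and by 1.65 in Ccna2-MO embryos (adjusted p = 0.178). The part of such RNA in the results below was not tested.

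Under a linear model over all 12 arrays (limma, Benjamini-Hochberg adjustment over all probe sets, calls at an adjusted p under 0.05), 0 of the 10 genes were called in any comparison on their brightest probe set. In the same fit 0.0734% of all probe sets were called in Oct4-MO embryos, 0.748% in Ccna2-MO embryos and 0.00223% for the difference between the knockdowns. At an unadjusted p under 0.05, 3 genes were higher and 0 lower in Oct4-MO embryos, where 4.17% of all probe sets were higher and 5.09% lower. Over all 22 probe sets of the genes the counts were 4 higher and 3 lower. In Ccna2-MO embryos 1 gene was higher and 1 lower, beside 6.89% and 7.16% of all probe sets, and over the 22 probe sets 2 were higher and 4 lower. The median difference of the 10 genes was 0.44 in Oct4-MO embryos and 0.13 in Ccna2-MO embryos, and that of all genes was 0.01 and 0.03. Over the 22 probe sets the medians were 0.25 and 0.03. Values here are the authors' array intensities, differences are on the log2(value + 16) scale, and levels of different genes are not compared, because probe sets differ in their response.

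In 4 of the 10 genes, Cdx2, Gata3, Ets2 and Dsp, the 3 Oct4-MO arrays lay above their 3 uninjected arrays without overlap, and in 0 genes below them. Among all probe sets 8.24% lay above and 8.4% below in this way, and among all genes on their brightest probe set 9.21% and 9.57%. Over the 22 probe sets of the 10 genes, 6 lay above and 5 below. In Ccna2-MO embryos 0 of the 10 genes lay above and 1, Tead4, lay below its controls without overlap, beside 8.64% and 8.27% of all probe sets, and over the 22 probe sets 2 lay above and 4 below. The 10 genes were chosen with results of these arrays known, and no test was made over them as a group.

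**Figure D1:**
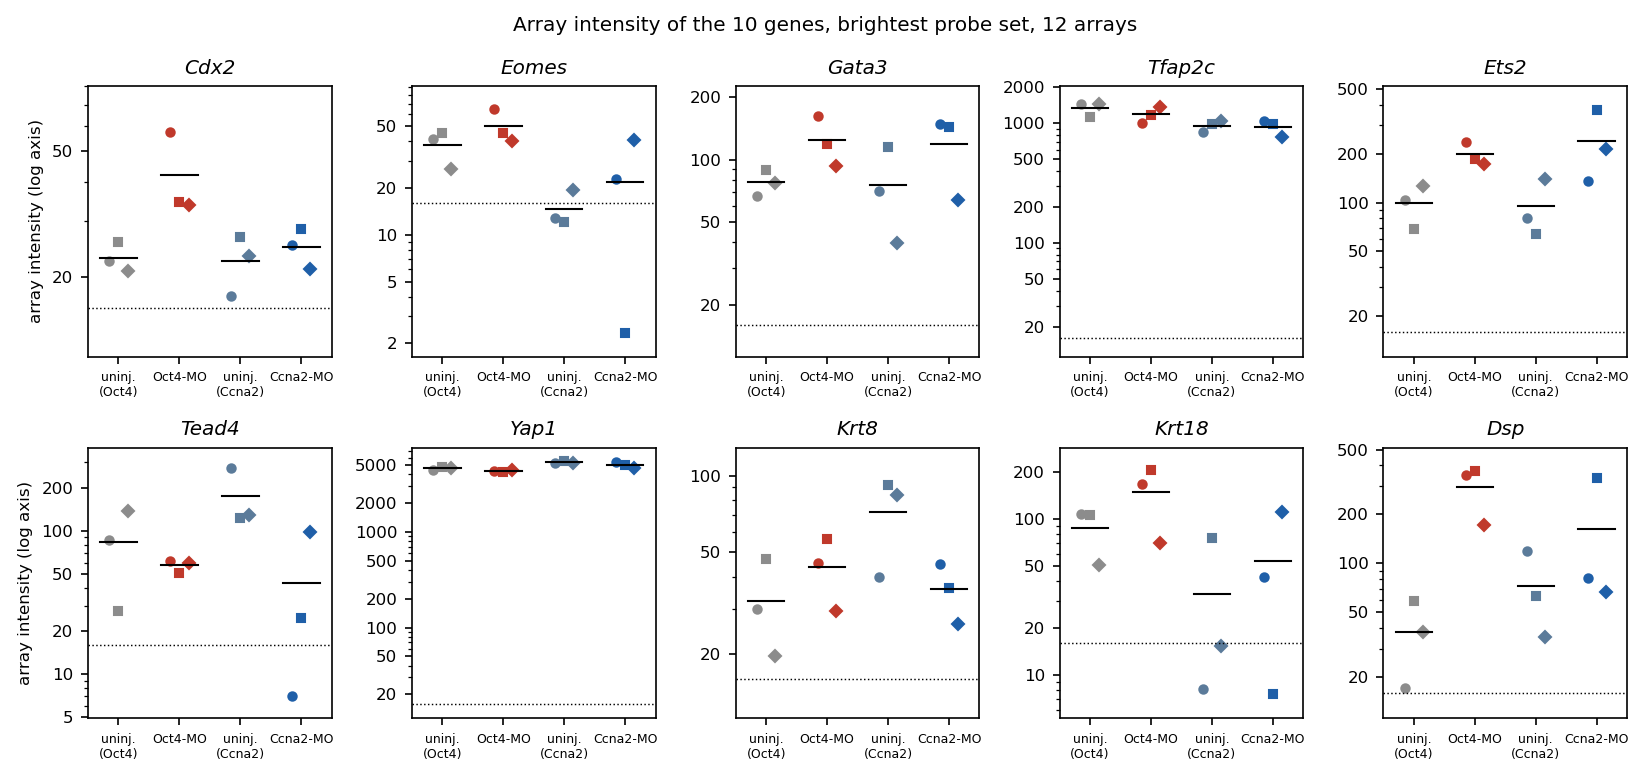
Array intensity (log axis, authors' linear values) of the 10 genes on their brightest probe set. Each point is 1 array, with circles, squares and diamonds for replicates 1, 2 and 3, the bar is the mean of 3 arrays, and the dotted line is at a value of 16. The 3 Oct4-MO arrays of Dsp, between 173 and 368, lay above their uninjected arrays, between 17.1 and 59.2, whereas Yap1 stayed between 4212 and 5477 on all 12 arrays.

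Among the lineage transcription factors, Cdx2, the caudal-type homeobox factor required to maintain the trophectoderm, was dim. Its probe set 1422075_at read 22.4, 25.8 and 21.0 in uninjected embryos of the Oct4-MO experiment and 57.3, 34.6 and 33.8 in Oct4-MO embryos. All 3 injected pools were thus higher than all 3 controls, with the first pool furthest away. The difference was 0.55 (SE 0.24, 95% confidence interval 0.04 to 1.06, unadjusted p = 0.0378, adjusted p = 0.505) and did not pass. In the Ccna2-MO experiment the uninjected embryos read 17.4, 26.8 and 23.3 and the Ccna2-MO embryos 25.2, 28.5 and 21.2. These groups overlapped, with a difference of 0.09 (interval -0.42 to 0.61). The change in Oct4-MO minus that in Ccna2-MO embryos was 0.45 (interval -0.27 to 1.17, adjusted p = 0.832). The other Cdx2 probe set, 1422074_at, was under 16 on all 12 arrays, between 1.28 and 8.75.

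Cdx2 lies on the minus strand of chromosome 5, and its promoter was 1 of 8 promoters of these genes found in the RefSeq table (mouse GRCm38.p6, 250 bases before to 50 bases after the annotated start). Tead4 and Tfap2c have no entry there. Because Oct4 binds the octamer ATGCAAAT, this motif was searched on both strands. It occurred in 1.74% of 32851 promoters and in 1 of the 8, that of Cdx2. The window is shown since it is the only one of these promoters with the octamer, which is in capitals, and it lies 147 bases upstream of the start at chr5:147307378-147307407.
Cdx2 octamer: caacttttaaaATGCAAATcgtgtttctgg
A match of letters is a description of the sequence and does not show binding.

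Eomes, the T-box factor that acts beside Cdx2 in the trophoblast, varied widely among the injected pools of the Ccna2-MO experiment. On 1435172_at the uninjected embryos of the Oct4-MO experiment read 41.5, 45.4 and 26.7 and those of the Ccna2-MO experiment 12.9, 12.01 and 19.4. The uninjected groups did not overlap, and the second differed by -0.80 (interval -1.59 to -0.01, unadjusted p = 0.0478, adjusted p = 0.429), with -0.58 (adjusted p = 0.645) on the second probe set. Oct4-MO embryos read 64.9, 45.1 and 40.2, a difference of 0.29 (adjusted p = 0.897). Ccna2-MO embryos read 22.9, 2.34 and 40.6, which spanned all values of their controls. The second probe set, 1426001_at, read 94.9, 16.2 and 50.3 in Ccna2-MO embryos and 15.7, 13.0 and 3.02 in their controls. On it the injected pools lay above the controls without overlap (difference 1.25, SE 0.43, unadjusted p = 0.0121, adjusted p = 0.199), which the brighter probe set did not show (0.16, adjusted p = 0.894).

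Gata3, a zinc finger factor that is switched on by Tead4 in parallel with Cdx2, has 1 probe set. Uninjected embryos of the Oct4-MO experiment read 67.0, 88.9 and 77.1 and Oct4-MO embryos 162, 119 and 93.1. Every injected pool was above every control, by a difference of 0.56 (interval -0.25 to 1.38, adjusted p = 0.726). In the Ccna2-MO experiment the controls read 70.8, 115 and 39.6 and the injected pools 148, 144 and 64.1. The difference was of like size, 0.58 (interval -0.24 to 1.395, adjusted p = 0.543), but these groups overlapped. Within each pair of pools of one number the Ccna2-MO pool was the higher one, and the difference between the knockdowns was -0.01 (interval -1.17 to 1.15).

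Ets2, a factor needed for trophoblast self-renewal, had the same direction in both knockdowns. On 1416268_at uninjected embryos of the Oct4-MO experiment read 104, 68.4 and 126 and Oct4-MO embryos 236, 186 and 172. The groups were apart, with a difference of 0.91 (SE 0.38, interval 0.09 to 1.73, unadjusted p = 0.0315, adjusted p = 0.481). Controls of the Ccna2-MO experiment read 80.8, 64.2 and 140, and Ccna2-MO embryos 136, 374 and 213. Here 1 injected pool lay below the highest control, and the difference was 1.16 (SE 0.38, interval 0.35 to 1.98, unadjusted p = 0.00891, adjusted p = 0.177). The change in Oct4-MO minus that in Ccna2-MO embryos was -0.25 (interval -1.41 to 0.90, adjusted p = 0.947), an interval wide enough to hold a difference in either direction. The other Ets2 probe sets gave 0.41 and 0.41 in Oct4-MO embryos and 0.08 and 0.40 in Ccna2-MO embryos, none of them called.

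Tfap2c encodes AP-2 gamma, a transcription factor already present as maternal product in the early embryo and later expressed in the trophectoderm. On 1436392_s_at uninjected embryos of the Oct4-MO experiment read 1444, 1123 and 1458 and Oct4-MO embryos 1012, 1172 and 1372. Controls of the Ccna2-MO experiment read 840, 979 and 1039 and Ccna2-MO embryos 1032, 992 and 761. Injected and uninjected pools overlapped in both experiments (differences of -0.18 and -0.04), while the uninjected embryos of the second experiment lay below those of the first without overlap (-0.48, interval -0.87 to -0.10, unadjusted p = 0.0175, adjusted p = 0.322). The other probe sets of Tfap2c did not follow the brightest. On 1448977_at the uninjected embryos of the second experiment lay above those of the first (0.77, adjusted p = 0.336), and Ccna2-MO embryos, at 516, 318 and 241, lay below their controls at 721, 610 and 552 (-0.84, SE 0.29, adjusted p = 0.203). On 1418147_at it was the Oct4-MO embryos, at 81.4, 121 and 79.3, that lay below their controls at 168, 126 and 201 (-0.72, SE 0.29, adjusted p = 0.459). The direction given for Tfap2c between the experiments thus depended on the probe set.

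**Figure D2:**
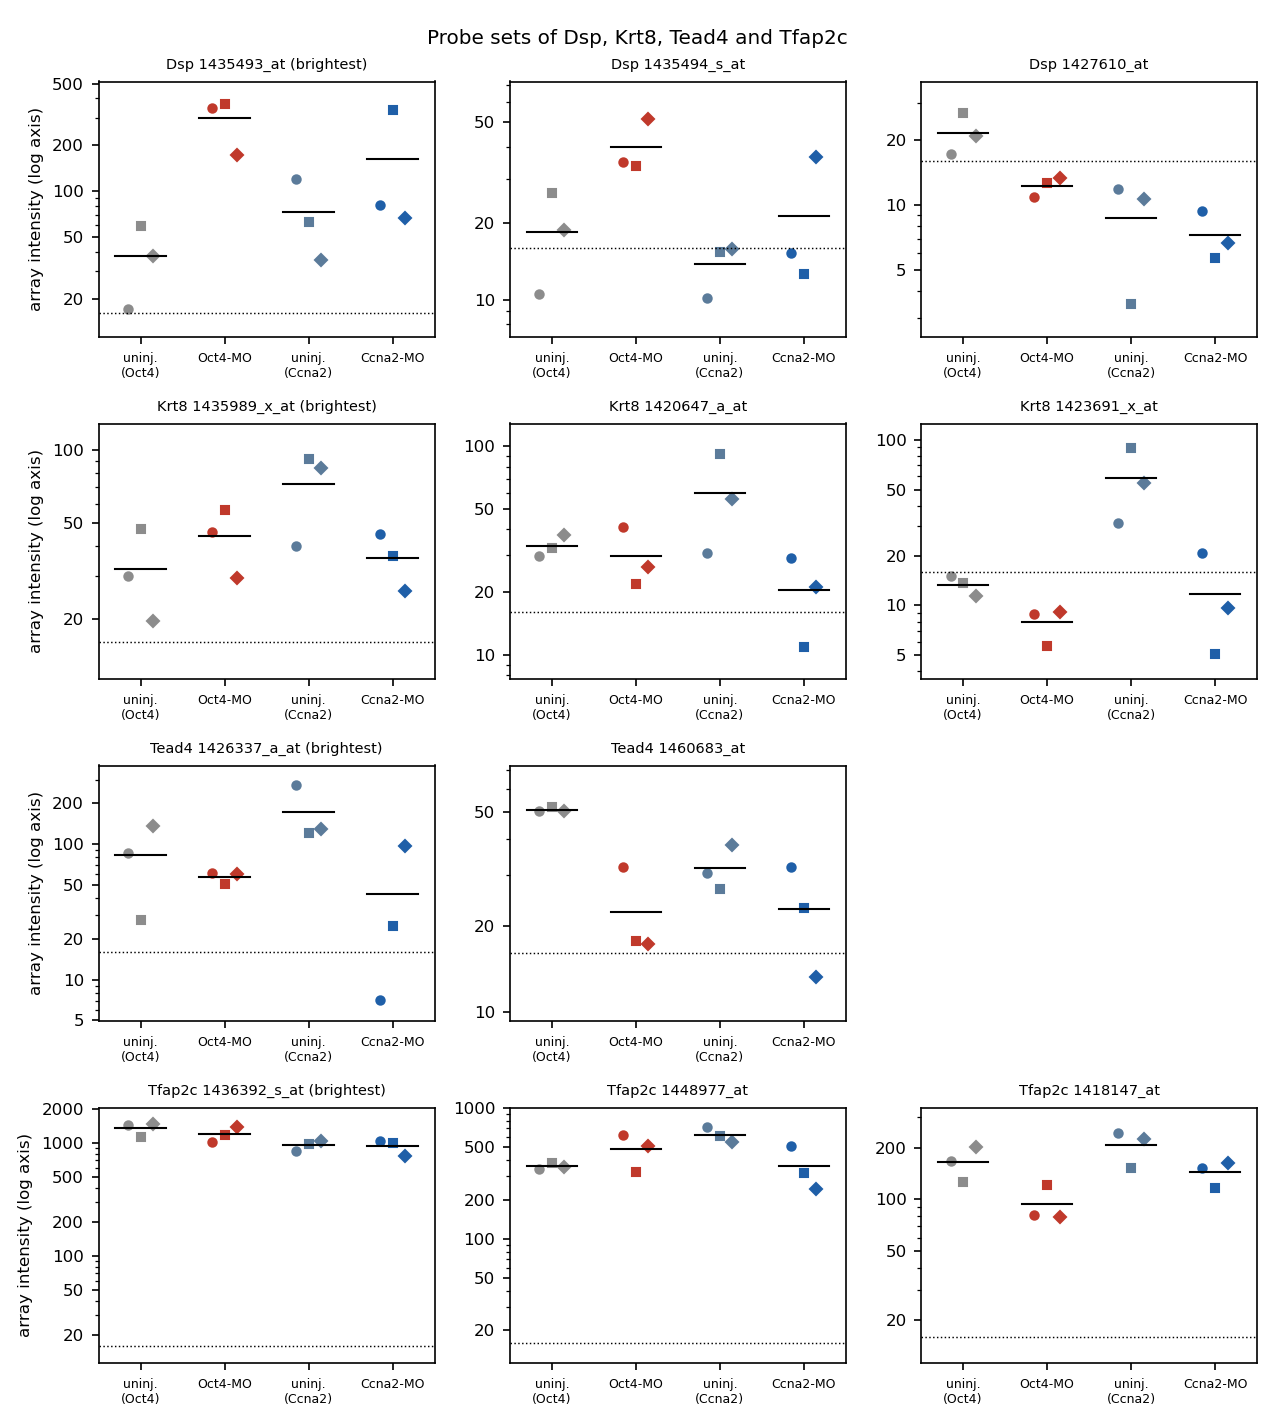
Array intensity (log axis) of every probe set of Dsp, Krt8, Tead4 and Tfap2c, brightest first in each row. Each point is 1 array (circles, squares and diamonds for replicates 1, 2 and 3), bars are means of 3 arrays and the dotted line is at 16. Dsp 1427610_at lay lower in Oct4-MO embryos, between 10.9 and 13.5, than in their controls, between 17.3 and 26.8, opposite to the brightest Dsp probe set.

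Of the Hippo effectors, Yap1, the co-activator held in the cytoplasm by the Hippo kinases, varied little on its brightest probe set. On 1448363_at it read 4447, 4763 and 4707 in uninjected and 4314, 4212 and 4448 in Oct4-MO embryos, and 5339, 5477 and 5234 in uninjected and 5456, 5045 and 4666 in Ccna2-MO embryos. Its SD over the 12 arrays was 0.13 on the log2(value + 16) scale, whereas that of Dsp, on a much dimmer probe set, was 1.19. The part of intensity in this contrast was not tested. On the other Yap1 probe set, 1416487_a_at, the SD was 0.30. The differences on 1448363_at were -0.10 (interval -0.25 to 0.05) in Oct4-MO embryos and -0.08 (interval -0.23 to 0.06) in Ccna2-MO embryos. On 1416487_a_at the Oct4-MO pools, at 861, 786 and 742, lay below their controls at 902, 1009 and 901 without overlap (-0.23, interval -0.54 to 0.08, adjusted p = 0.694). The uninjected embryos of the second experiment were higher than those of the first without overlap (0.21, SE 0.07, unadjusted p = 0.0104, adjusted p = 0.274), also on the second probe set (0.41, adjusted p = 0.3).

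Tead4, the TEAD factor without which no trophectoderm forms, varied most of the 10 genes among the uninjected pools of the Oct4-MO experiment. On 1426337_a_at it read 86.6, 27.6 and 137 in uninjected and 61.5, 50.5 and 59.9 in Oct4-MO embryos. The Oct4-MO pools lay inside the range of their controls (difference -0.27, interval -1.51 to 0.97, adjusted p = 0.951). In the Ccna2-MO experiment the controls read 272, 122 and 129 and the injected pools 7.02, 24.8 and 97.6. All 3 Ccna2-MO pools were below all 3 controls, with a difference of -1.92 (SE 0.57, interval -3.15 to -0.68, unadjusted p = 0.0054, adjusted p = 0.143), which did not pass. Replicate 3 was the Ccna2-MO pool nearest to its controls, and without it the difference was -2.55 with an adjusted p of 0.0414, at which Tead4 would be called. The change in Oct4-MO minus that in Ccna2-MO embryos was 1.65 (interval -0.10 to 3.40, adjusted p = 0.761).

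On the second Tead4 probe set it was the Oct4-MO pools that lay apart from their controls. On 1460683_at the uninjected embryos of the Oct4-MO experiment read 50.2, 51.7 and 50.3 and Oct4-MO embryos 32.1, 17.6 and 17.2. The groups did not overlap (-0.82, SE 0.26, interval -1.39 to -0.26, unadjusted p = 0.00789, adjusted p = 0.305). Ccna2-MO embryos read 32.1, 23.0 and 13.2 on it, and their controls 30.6, 26.9 and 38.1. There the groups overlapped (-0.33, adjusted p = 0.632). The change in Oct4-MO minus that in Ccna2-MO embryos was -0.50 on it (interval -1.30 to 0.30, adjusted p = 0.832), so a difference between the knockdowns was not shown. Over the 12 arrays the Pearson correlation of the log2 values of both Tead4 probe sets was 0.06, given as a description of probe sets measured on the same arrays.

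TEAD proteins bind the letters GGAATG, and AP-2 proteins a motif GCCNNNGGC. GGAATG was found on either strand in 14.7% of all promoters of this length and in 1 of the 8, that of Yap1. The AP-2 letters were found in 16.6% of all promoters and in 5 of the 8, those of Cdx2, Gata3, Yap1, Krt18 and Dsp. The Yap1 window with the TEAD letters, at chr9:8004720-8004749 on the minus strand and 141 bases upstream of the start, and the AP-2 windows of the epithelial genes Dsp (chr13:38151209-38151238, plus strand, 75 bases upstream) and Krt18 (chr15:102028123-102028152, plus strand, 83 bases upstream) are shown with the motif in capitals, since they hold letters that factors of this group of genes bind.
Yap1 TEAD: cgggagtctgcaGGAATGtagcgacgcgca
Dsp AP-2: ggggagggcgGCCCCAGGCgtcggtgacac
Krt18 AP-2: cgatcctggcGCCCCCGGCtccggtggctg
Among the epithelial genes the octamer was in none of the promoters of Krt8, Krt18 and Dsp, within these 300 bases. The AP-2 windows of Cdx2, Gata3 and Yap1 are not shown. These matches of letters do not show binding either. The promoters were not matched in base composition, and the counts were not tested against the shares of all promoters.

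Dsp had the largest difference of the 10 genes. Its probe set 1435493_at read 17.1, 59.2 and 38.0 in uninjected embryos of the Oct4-MO experiment, a mean of 38.1 ± 21.1 (SD, n = 3), and 349, 368 and 173 in Oct4-MO embryos, a mean of 297 ± 108 (SD, n = 3). The lowest Oct4-MO pool was well above the highest control. The difference was 2.54 (SE 0.56, interval 1.33 to 3.75, unadjusted p = 0.000617) with an adjusted p of 0.135, which did not pass. It was 2.20 with an adjusted p of 0.0514 when all 6 uninjected arrays served as controls. That setting called 452 of all probe sets, where the main fit called 33. With the pairs of pools of one number as a block the adjusted p was 0.158, and over all alternatives it ran from 0.048 to 0.448. The adjusted p was 0.048 when Ccna2-MO replicate 2, an array outside this comparison with a high Dsp value, was left out of the shared estimate of the spread.

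In the Ccna2-MO experiment Dsp read 120, 62.8 and 35.6 in uninjected and 81.3, 337 and 67.1 in Ccna2-MO embryos. One injected pool was high and the others lay within the range of the controls, a difference of 0.79 (interval -0.43 to 2.00, adjusted p = 0.580). The change in Oct4-MO minus that in Ccna2-MO embryos was 1.75 (interval 0.03 to 3.47, unadjusted p = 0.0463, adjusted p = 0.749). The other Dsp probe sets split. On 1435494_s_at the Oct4-MO embryos, at 35.0, 33.8 and 51.8, were again above their controls at 10.6, 26.4 and 18.9 (0.71, SE 0.28, unadjusted p = 0.025, adjusted p = 0.451). On the dim 1427610_at, at or above 16 on 3 of 12 arrays, they were below them, with 10.9, 12.7 and 13.5 against 17.3, 26.8 and 21.0 (-0.41, SE 0.18, unadjusted p = 0.041, adjusted p = 0.513). With the mean of the 3 Dsp probe sets the difference was 0.95 (adjusted p = 0.121).

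The genes of the keratin partners Krt8 and Krt18 lie 23873 bases apart on chromosome 15 of GRCm38.p6. On their brightest probe sets both were higher in Oct4-MO embryos than in their controls. Their differences had opposite signs in Ccna2-MO embryos and between the uninjected groups. None of these differences was called. Krt18 on its only probe set read 107, 106 and 50.9 in uninjected and 169, 206 and 70.1 in Oct4-MO embryos. Each Oct4-MO pool was above the uninjected pool of its number, but the groups overlapped (0.61, interval -0.77 to 1.98, adjusted p = 0.863). Uninjected embryos of the Ccna2-MO experiment read 8.19, 75.9 and 15.5 and Ccna2-MO embryos 42.8, 7.54 and 111. Within either of these groups the pools differed more than the group means did (difference 0.44, interval -0.93 to 1.82, adjusted p = 0.817). Krt18 was lower in the uninjected embryos of the second experiment than in those of the first, with a difference of -1.28 (interval -2.66 to 0.09, adjusted p = 0.466).

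Krt8 ran the other way between the uninjected groups. On 1435989_x_at it read 30, 47.0 and 19.6 in the first experiment and 40.0, 92.0 and 84.2 in the second, a difference of 0.85 (unadjusted p = 0.026, adjusted p = 0.362) with overlap. Oct4-MO embryos read 45.6, 56.5 and 29.5 (0.33, interval -0.41 to 1.06, adjusted p = 0.859). Ccna2-MO embryos read 45.0, 36.3 and 26.1, below their controls apart from 1 overlapping pool (-0.73, interval -1.46 to 0.01, adjusted p = 0.361). The change in Oct4-MO minus that in Ccna2-MO embryos was 1.05 (interval 0.02 to 2.09, unadjusted p = 0.0471, adjusted p = 0.749). The other Krt8 probe sets also lay lower in Ccna2-MO embryos, and both without overlap. In Oct4-MO embryos they went against the brightest one. The difference was -0.13 on 1420647_a_at (adjusted p = 0.963) and -0.30 on 1423691_x_at, without overlap (adjusted p = 0.844). The change in Oct4-MO minus that in Ccna2-MO embryos was 0.88 and 1.095 on them (adjusted p = 0.778 and 0.691).

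Of all 22 probe sets 1 was called, the dim Krt8 probe set 1423691_x_at lower in Ccna2-MO embryos, where 0.409% of all probe sets were called lower. It read 31.6, 89.4 and 55.1 in uninjected and 20.6, 5.12 and 9.59 in Ccna2-MO embryos, and it was at or above 16 on 4 of 12 arrays. The groups did not overlap, and the difference was -1.39 (SE 0.29, adjusted p = 0.0486). The call was lost with the paired pools as a block (adjusted p = 0.11), with all 6 uninjected arrays as controls (-0.75, adjusted p = 0.398), in the fit of the 6 arrays compared (adjusted p = 0.247) and without the trend (adjusted p = 0.0556). It was also lost with 1 or 64 added before log2, where the difference was -2.30 or -0.67 (adjusted p = 0.0588 in both), and in each fit that left out 1 array, the exception being the fit without Ccna2-MO replicate 1. It held after quantile normalization and after median centring, and over all alternatives the adjusted p ran from 0.0414 to 0.398. In the first experiment the uninjected pools read 15.03, 13.6 and 11.4, below every uninjected pool of the second, and Oct4-MO pools 8.88, 5.72 and 9.13. On 1420647_a_at, with 30.8, 92.0 and 55.8 in uninjected and 29.0, 10.9 and 21.2 in Ccna2-MO embryos, the difference was -1.002 (SE 0.33, adjusted p = 0.183). An x in the name of an Affymetrix probe set marks probes that may also bind other transcripts.

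**Figure D3:**
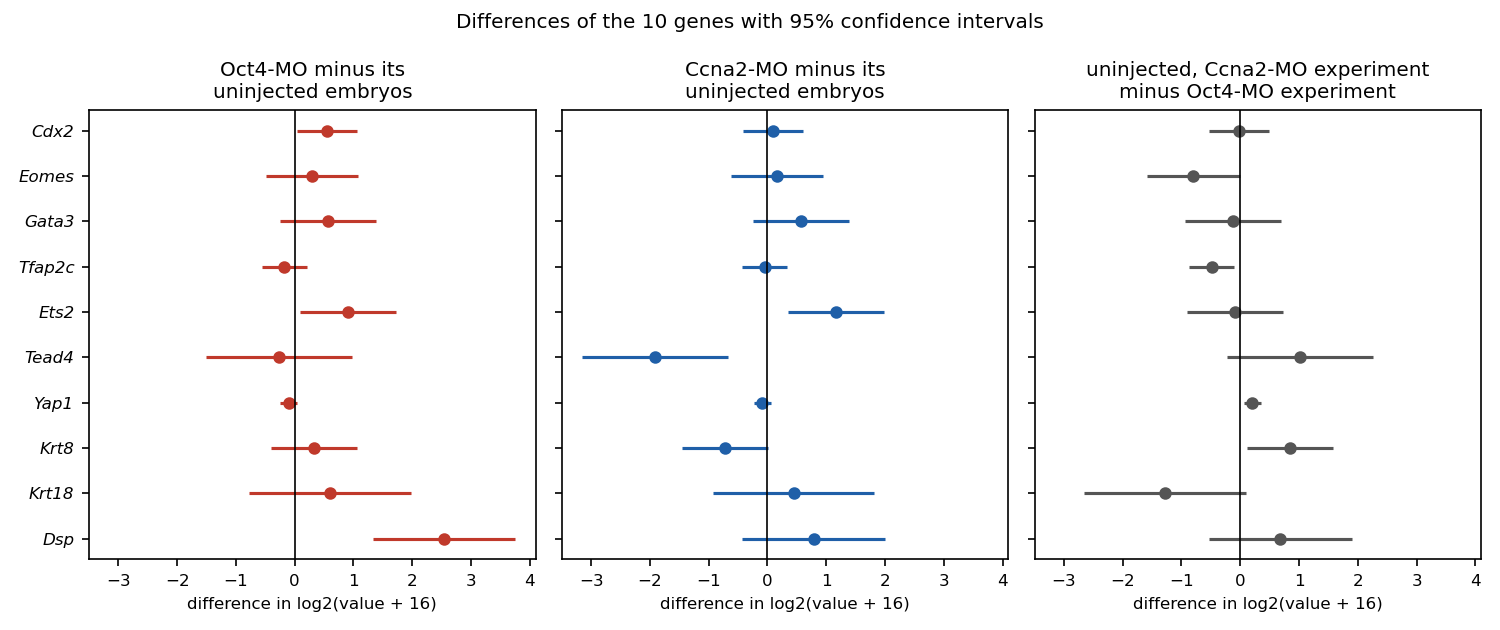
Differences of the 10 genes on their brightest probe set, in log2(value + 16), for Oct4-MO and Ccna2-MO embryos against their own uninjected embryos and for the uninjected embryos of the Ccna2-MO experiment against those of the Oct4-MO experiment. Points are differences of means of 3 arrays, lines are 95% confidence intervals of the limma fit without adjustment for the number of probe sets, and 0 of the 10 genes passed the adjusted threshold in any panel. Dsp, at 2.54 in Oct4-MO embryos, and Tead4, at -1.92 in Ccna2-MO embryos, lie furthest from 0.

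Between the uninjected embryos of the 2 experiments 0 of the 10 genes were called, where 0.0912% of all probe sets were. At an unadjusted p under 0.05, 2 genes (Yap1 and Krt8) were higher and 2 (Eomes and Tfap2c) lower in the second experiment, beside 5.95% and 5.57% of all probe sets. Of the 12 other probe sets of the genes, 8 had the sign of the brightest one in Oct4-MO embryos and 11 in Ccna2-MO embryos. For the difference between the knockdowns 5 of the 12 had it, and between the uninjected groups 6. Of the 10 brightest probe sets 7 were at or above 16 on all 12 arrays, Tead4 was on 11, and Eomes and Krt18 were on 9. Ordered by group means, Oct4-MO embryos had the highest level of Cdx2, Eomes, Gata3, Krt18 and Dsp. Of these only Cdx2 was separated from the next group without overlap. For Eomes and Krt18 the next group was the uninjected embryos of the same experiment. The share of all genes with Oct4-MO embryos highest was not counted, nor was the share separated from the next group in this way.

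Other genes of the same pathways were read from lists. Of 21 measured Hippo pathway genes and TEAD partners, 0 were called in any comparison. At an unadjusted p under 0.05, 1 was higher and 2 were lower in Oct4-MO embryos, beside 4.17% and 5.09% of all probe sets. In Ccna2-MO embryos 1 was higher and 3 were lower, beside 6.89% and 7.16%. Mob1a, an activator of the Lats kinases, came nearest to a call. It read 1307, 1049 and 1226 in uninjected and 331, 292 and 771 in Ccna2-MO embryos, without overlap (-1.46, SE 0.32, adjusted p = 0.0584). Wwc1, the scaffold Kibra upstream of those kinases, read 643, 618 and 515 in uninjected and 969, 1210 and 844 in Ccna2-MO embryos (0.74, adjusted p = 0.116), and it was higher by 0.47 in Oct4-MO embryos (adjusted p = 0.505). Stk4, the kinase Mst1 at the head of the cascade, differed by -0.84 in Oct4-MO embryos (adjusted p = 0.407). The median difference of the list was -0.10 in the first and 0.00 in the second knockdown.

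Of 21 other regulators and markers of the trophectoderm 0 were called. At an unadjusted p under 0.05, 1 was higher and 2 were lower in Oct4-MO embryos, beside 4.17% and 5.09% of all probe sets. In Ccna2-MO embryos 2 were higher and 0 lower, beside 6.89% and 7.16%. Grhl2, a factor of epithelial junction genes, read 359, 230 and 199 in uninjected and 109, 82.4 and 133 in Oct4-MO embryos, without overlap (-1.15, SE 0.45, adjusted p = 0.449). Atp12a, a proton and potassium pump, was under 16 on all arrays (-0.40, adjusted p = 0.464). In Ccna2-MO embryos the smallest p values were those of Fgfr2, the FGF receptor through which trophoblast stem cells are maintained (1.11, adjusted p = 0.341), and Msx2, a homeobox factor (0.61, adjusted p = 0.352). The list's median difference was 0.15 in the first and 0.09 in the second knockdown, and 14 of the 21 genes were above 0 in each. Between the uninjected groups the median was -0.38, where that of all genes was -0.02.

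Of 18 other keratin, desmosome and epithelial linker genes 0 were called. In Oct4-MO embryos 2 were higher and 0 lower at an unadjusted p under 0.05, beside 4.17% and 5.09% of all probe sets. In Ccna2-MO embryos 0 were higher and 1 lower, beside 6.89% and 7.16%. Evpl, which encodes envoplakin, a plakin like desmoplakin, read 11.6, 16.5 and 23.4 in uninjected and 44.5, 50.6 and 59.3 in Oct4-MO embryos. The groups did not overlap, and the difference of 1.03 (SE 0.24, adjusted p = 0.151) did not pass. Ezr, the linker ezrin between actin and the apical membrane, read 76.5, 75.2 and 88.6 in uninjected and 242, 205 and 109 in Oct4-MO embryos (1.01, SE 0.35, adjusted p = 0.372), also without overlap. In Ccna2-MO embryos Evpl and Ezr differed by 0.20 and 0.16. Epcam, an adhesion molecule of epithelia, differed there by -0.69 (adjusted p = 0.291), and Perp, a desmosome-associated membrane protein, was at 0.62 (adjusted p = 0.489) and at or above 16 on 1 array. The list's median was 0.18 in the first and 0.00 in the second knockdown.

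**Figure D4:**
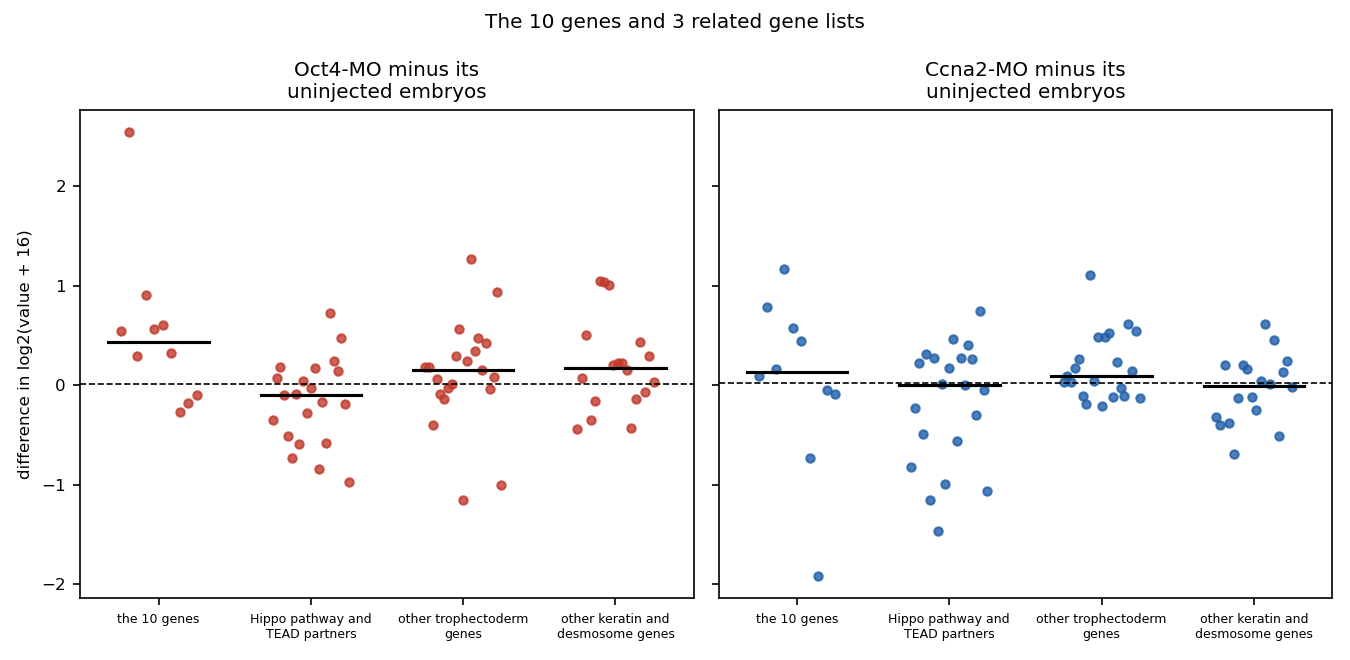
Differences in log2(value + 16) of single genes on their brightest probe set in Oct4-MO embryos (left) and Ccna2-MO embryos (right) against their own uninjected embryos. Columns hold the 10 genes, 21 Hippo pathway genes and TEAD partners, 21 other trophectoderm genes and 18 other keratin and desmosome genes, bars are medians and the dashed line is the median of all genes. The median of the 10 genes was 0.44 in Oct4-MO embryos and 0.13 in Ccna2-MO embryos (0.25 and 0.03 over all 22 probe sets), and none of the genes shown was called.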

How the data were processed

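The deposited values are linear-scale intensities, 1 per probe set, which the authors obtained by normalization in dChip; its version and options are not stated in the sources at hand. Of 45001 probe sets 64 controls were left out. Of the rest, 34849 have 1 gene symbol in the platform annotation, 928 have several and 9160 have none. Groups came from the labels, which number the pools of a group but do not say whether they came from separate collections. The study's supplement lists 3 experiments for the arrays of each knockdown, which are treated as 1 experiment here. The p-values measure the spread between these pools. R 4.3.3 and limma 3.58.1 fitted log2(value + 16) with 4 group means over 12 arrays and an intensity trend in the variance prior, and p-values were adjusted over 44937 probe sets. Adding 16 understates differences of dim probe sets, and 39.3 to 42.7% of values on an array were under 16. Differences were taken against the uninjected group of the same experiment. Members, gene lists and tests were chosen with earlier results of these data known. The 10 genes are all named. From the pathway lists, genes called in any comparison were to be named, and otherwise, for each list and knockdown, the 2 with the smallest p; from the marker lists the 3 brightest.

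The labels tie each uninjected pool to the injected pool of its number. After subtraction of the group means, arrays of one pair correlated at 0.08, 0.03 and 0.01 (Oct4-MO) and at -0.01, 0.08 and 0.11 (Ccna2-MO). Arrays correlated at 0.912 to 0.966 and 0 pairs were identical. The fit was tested on simulated arrays with changes in the brighter probe sets. In the Oct4-MO comparison 14.9% of 2-fold, 65.7% of 4-fold and 86.4% of 8-fold changes were recovered. In the Ccna2-MO comparison 14.9%, 62.7% and 83.3% were recovered. False calls numbered 9 in the Oct4-MO and 5 in the Ccna2-MO comparison. Promoter windows are from RefSeq on GRCm38.p6. Figures were drawn with matplotlib 3.10.9. The alternatives were a control group of all 6 uninjected arrays, fits restricted to the 6 arrays compared, the pair as a block, no trend, 1 or 64 added before log2, the brighter 22468 probe sets, quantile normalization, median centring, averaging over the probe sets of each gene, and leaving out each array.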

Additional observations from a re-analysis of the deposited data

How the results depend on the processing

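Each group has 3 arrays, and Tead4, Eomes and Krt18 had values under 16 on some of them; the part of signal over background in the spread was not tested. Of the 10 genes, 0 were called in each alternative that kept all arrays, and leaving out 1 array gave 0 to 1 called gene in either knockdown (Tead4 without Ccna2-MO replicate 3, Dsp without Ccna2-MO replicate 2). Over the alternatives the adjusted p of Dsp in Oct4-MO embryos ran from 0.048 to 0.448 and that of Tead4 in Ccna2-MO embryos from 0.0414 to 0.356.

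Counts over all probe sets moved more. In Oct4-MO embryos 33 were called, 452 with all 6 uninjected arrays as controls, 0 in the fit of 6 arrays, 16 without the trend, 18 with 64 added, 92 in the brighter part and 0 to 87 without 1 array. In Ccna2-MO embryos 336 were called, 3 in the fit of 6 arrays, 711 in the brighter part and 17 to 652 without 1 array. Between the knockdowns 1 was called, 0 without the trend, with 64 added or in the brighter part, and 0 to 3 without 1 array. Between the uninjected groups 41 were called, 0 in the fit of 6 arrays and 2 to 48 without 1 array. With the replicate block, which pairs the pools, 4 were called in Oct4-MO embryos, 124 in Ccna2-MO embryos and 0 between the knockdowns; on the brightest probe sets the block changed no call of the 10 genes.

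Signs turned in 19 of 40 differences of single genes, among them differences that were not close to 0, such as Tfap2c (-0.48) and Dsp (0.68) between the uninjected groups, Krt18 in Ccna2-MO embryos (0.44) and Krt8 in Oct4-MO embryos (0.33). With all 6 uninjected arrays as controls, Eomes, Krt18 and Yap1 in Ccna2-MO embryos were at -0.23, -0.20 and 0.019, and Krt8 and Tfap2c in Oct4-MO embryos at -0.10 and 0.064. With 1 added, Eomes in Ccna2-MO embryos was at -0.051. Averaged over its probe sets, Krt8 in Oct4-MO embryos was at -0.032, the difference between knockdowns was -0.46 for Eomes, 0.031 for Ets2 and 0.28 for Tfap2c, and the uninjected groups differed by -0.044 for Dsp, 0.23 for Ets2 and 0.20 for Tfap2c. Quantile normalization gave 0.037 for Cdx2 between the uninjected groups and 0.073 for Gata3 between the knockdowns, which was 0.0096 with 64 added and 0.041 with median centring, where Yap1 was 0.036. Without 1 array, differences in Ccna2-MO embryos ran from -0.0038 to 0.18 for Cdx2, -0.20 to 0.62 for Eomes, -0.15 to 1.07 for Krt18 and -0.13 to 0.092 for Tfap2c, and that of Tead4 in Oct4-MO embryos from -0.78 to 0.13. Between the knockdowns they ran from -0.32 to 0.49 for Eomes, -0.58 to 0.10 for Ets2, -0.35 to 0.30 for Gata3, -0.47 to 0.75 for Krt18 and -0.073 to 0.040 for Yap1, and between the uninjected groups from -0.11 to 0.072 for Cdx2, -0.36 to 0.12 for Ets2 and -0.42 to 0.19 for Gata3. The cause was not tested. In all, 46 of 840 such values turned sign. Mob1a was called in Ccna2-MO embryos in 5 alternatives.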
